A study of Mus musculus with 30 samples.

Results

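Heme is broken down by a short chain of enzymes, and its traffic in and out of cells and organelles is carried by a small set of membrane proteins. The 8 genes described here were taken by symbol from the count table: the heme oxygenases Hmox1 and Hmox2, the biliverdin reductases Blvra and Blvrb, the heme transporters Slc48a1, Flvcr1 and Flvcr2, and Por, the reductase that supplies heme oxygenase with electrons. All 8 were among the 21841 genes of the table, and all 8 passed the filter on low counts, as did 13663 genes in all. They were measured by bulk RNA sequencing of 30 mammary tumors, with 5 tumors in each of 6 groups.

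All mice were FVB/N-Tg(MMTV-PyVT)634Mul/J animals, in which the MMTV promoter drives the polyoma middle T oncogene in mammary epithelium and tumors arise spontaneously, and the labels give the genotype of every sample as WT. The groups received vehicle, 5-FU at 40 mg/kg every 4 days, gemcitabine at 64 mg/kg every 7 days, KCL-HO-1i at 25 µmol/kg every day, KCL-HO-1i/gemcitabine, or KCL-HO-1i together with 5-FU (KCL-HO-1i/5-FU), each by intraperitoneal injection for 72 h. Time and gemcitabine dose are both smaller in the methods of the study than in these labels, which give no age. The compound KCL-HO-1i inhibits heme oxygenase activity, 5-FU blocks thymidylate synthesis and gemcitabine is a cytidine analog. The study asked how inhibition of heme oxygenase changes the tumor, alone and with chemotherapy. Here the question is how transcripts of the heme breakdown and heme transport genes differ between these groups.

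Heme oxygenase opens the heme ring and releases iron, carbon monoxide and biliverdin, and biliverdin reductase then turns biliverdin into bilirubin. Hmox1 encodes HO-1, the isoform that is induced by heme and by oxidative stress and that is abundant in macrophages, whereas Hmox2 encodes the constitutive isoform HO-2. Free heme activates Hmox1 by displacing the repressor BACH1 from regulatory DNA of the gene, which the activator NRF2 then occupies. SLC48A1 (HRG1) moves heme out of the phagolysosome of macrophages that have taken up red cells, FLVCR1 was described as a heme exporter, and FLVCR2 as its relative.

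Totals per library ran from 10067577 to 13622264 counts, and levels are given as CPM, the read count normalized for effective library size. The floor of 3 reads was worth 0.215 to 0.302 CPM, depending on the library, and every member lay above that floor in every library. The labelled tissue was breast, and the 8 luminal epithelial markers summed to between 2724 and 6174 CPM over the 30 libraries. The lowest of these sums was in KCL-HO-1i/5-FU replicate 3. Libraries differed in what else they held. The libraries KCL-HO-1i replicate 4 and KCL-HO-1i/gemcitabine replicate 2 stood apart with 3247 and 5341 CPM of 8 adipocyte markers and 4361 and 13348 CPM of 8 skeletal muscle markers. Adipocyte markers elsewhere summed to between 12.2 and 1117 CPM, and KCL-HO-1i replicate 3 also held 1724 CPM of muscle markers. In bulk tissue, fewer cells of a type and less RNA per cell cannot be told apart.

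Hmox1 was the member with the largest change. As the mean of its effects over vehicle, 5-FU and gemcitabine, tumors given KCL-HO-1i, called the KCL-HO-1i average, held 5.36-fold more Hmox1 transcript (log2 fold change 2.42, SE 0.38, edgeR quasi-likelihood test with Benjamini-Hochberg adjustment, adjusted p = 0.0113), and it was the gene with the smallest p of all 13663 tested. It was the only 1 of the 8 members past an adjusted p of 0.05 in this comparison, against 0.0586% of all genes tested (8 genes). Blvrb (1.39-fold, adjusted p = 0.0525), Slc48a1 (1.42-fold, adjusted p = 0.0556) and Por (1.26-fold, adjusted p = 0.16) had higher means with KCL-HO-1i and did not pass. Hmox2, Blvra, Flvcr1 and Flvcr2 had log2 fold changes between -0.15 and 0.01.

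In vehicle tumors Hmox1 lay at 32.9, 51.3, 84.7, 59.9 and 18.4 CPM in replicates 1 to 5, and in 5-FU tumors at 33.9, 35.2, 63.9, 12.1 and 48.9 CPM. In gemcitabine tumors it lay at 29.8, 26.6, 50.4, 19.3 and 60.3 CPM. These 3 groups overlapped, and no library in them exceeded 84.7 CPM. With KCL-HO-1i alone, the 5 tumors held 86.4, 106, 299, 225 and 47.8 CPM. KCL-HO-1i/5-FU tumors held 189, 63.6, 1198, 222 and 107 CPM, and KCL-HO-1i/gemcitabine tumors held 149, 209, 418, 115 and 120 CPM. Of the 15 tumors given KCL-HO-1i, 13 lay above the highest of the 15 without it, and the exceptions were KCL-HO-1i replicate 5 and KCL-HO-1i/5-FU replicate 2. Each of the 15 lay above the log2 mean of its own background.

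**Figure D1:**
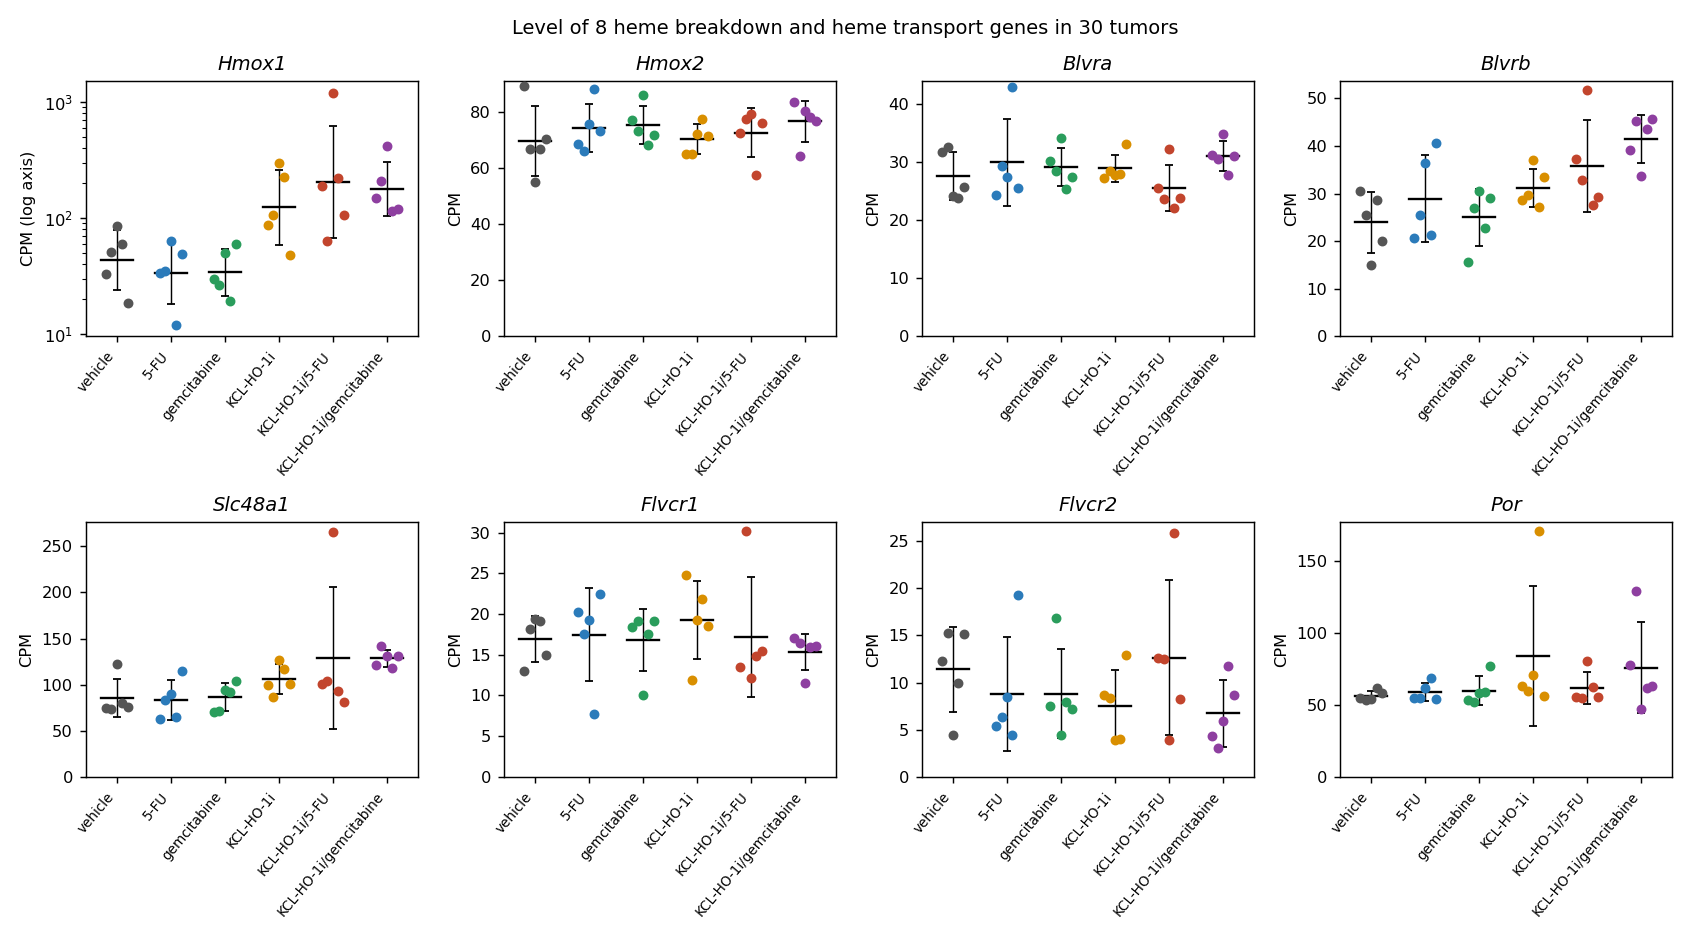
Level of each member in CPM (y axis) in the 5 tumors of each group (points, replicates 1 to 5 from left to right). Bars give the mean ± SD, and for Hmox1, drawn on a log axis, the geometric mean with the SD of the logs. Hmox1 exceeded 84.7 CPM in 13 of the 15 tumors given KCL-HO-1i, while Hmox2 stayed between 55.1 and 89.5 CPM in all 30.

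By group mean, Hmox1 was ordered from low to high as gemcitabine (37.3 ± 17.3 CPM), 5-FU (38.8 ± 19.2), vehicle (49.4 ± 25.4), KCL-HO-1i (153 ± 105), KCL-HO-1i/gemcitabine (202 ± 126) and KCL-HO-1i/5-FU (356 ± 475; SD, n = 5 each). The libraries of each pair of neighbors in this order overlapped. The mean and SD of the KCL-HO-1i/5-FU group rested on replicate 3, and its median was 189 CPM, against 149 with KCL-HO-1i/gemcitabine and 106 with KCL-HO-1i alone.

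The difference was positive in each background and its size was not resolved between them. Against vehicle, KCL-HO-1i alone gave a log2 fold change of 1.63 in Hmox1 (SE 0.64, adjusted p = 0.408). KCL-HO-1i/5-FU against 5-FU gave 3.20 (SE 0.68, adjusted p = 0.2), the 4th smallest p of that comparison. Without KCL-HO-1i/5-FU replicate 3 the latter value was 1.9. KCL-HO-1i/gemcitabine against gemcitabine gave 2.44 (SE 0.66, adjusted p = 0.282). In this last comparison the 2 groups did not overlap for Hmox1, Blvrb and Slc48a1, where 0.695% of all genes tested were higher without overlap. With KCL-HO-1i alone against vehicle (0.747% of genes) and with KCL-HO-1i/5-FU against 5-FU (0.937%), libraries overlapped for all 8 members. The interaction, which asks whether the effect of KCL-HO-1i depended on the chemotherapy, was 1.57 for 5-FU (SE 0.89, adjusted p = 0.636) and 0.81 for gemcitabine (SE 0.89, adjusted p = 1). With an interval of -0.27 to 3.41 for 5-FU and -1.02 to 2.64 for gemcitabine, neither a larger nor an equal effect can be read from these tumors.

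**Figure D2:**
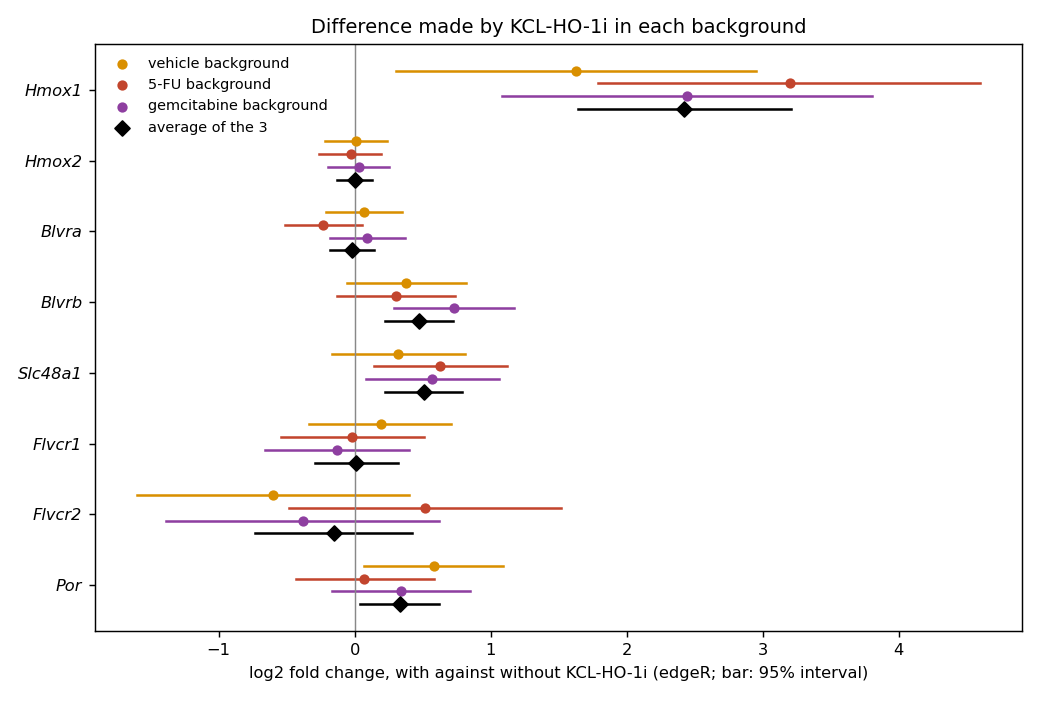
Log2 fold change with against without KCL-HO-1i (x axis) for each member in the vehicle, 5-FU and gemcitabine backgrounds (circles) and averaged over them (diamonds), with 95% intervals from edgeR. Hmox1 lay between 1.63 and 3.20, and the averages of Hmox2, Blvra and Flvcr1 lay within 0.02 of 0.

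No member passed the adjusted threshold in any of the 9 other comparisons in the edgeR fit, in which no gene of the table passed it either, so that unadjusted p-values are given as a description. At an unadjusted p under 0.05, 4 of 8 members had higher levels in the average (Hmox1, Blvrb, Slc48a1 and Por), where 13.7% of all genes were higher and 23.0% differed in either direction. KCL-HO-1i alone against vehicle gave 2 of 8 (Hmox1 and Por, against 9.43% of genes), KCL-HO-1i/5-FU against 5-FU gave 2 (Hmox1 and Slc48a1, 11.4%), and KCL-HO-1i/gemcitabine against gemcitabine gave 3 (Hmox1, Blvrb and Slc48a1, 13.5%). Against vehicle, KCL-HO-1i/5-FU (17.6%) gave Hmox1, Blvrb and Slc48a1, and so did KCL-HO-1i/gemcitabine (19.8%). Neither interaction gave a member, where 8.53% of genes were below 0.05 with 5-FU and 1.34% with gemcitabine. These comparisons share groups and are not independent of each other.

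With chemotherapy alone, no difference in the members was detected beyond the spread between tumors. None of the 8 had an unadjusted p under 0.05 with 5-FU (3.89% of genes) or with gemcitabine (3.83%). The log2 fold change of Hmox1 against vehicle was -0.35 with 5-FU (SE 0.63) and -0.41 with gemcitabine (SE 0.63), with intervals of -1.65 to 0.95 and -1.71 to 0.89, and changes within those intervals were not detectable.

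DESeq2, the test named in the methods of the study, called 3 members in the KCL-HO-1i average, Hmox1, Blvrb (adjusted p = 0.0107) and Slc48a1 (adjusted p = 0.0125), but it called 8.17% of all genes there. limma-voom with quality weights called the same 3 members, with 1.95% of genes. In KCL-HO-1i/gemcitabine against vehicle, DESeq2 called Hmox1 and Blvrb (6.69% of genes) and limma-voom called Hmox1, Blvrb and Slc48a1 (9.68%). In KCL-HO-1i/5-FU against vehicle both tools called Hmox1 alone of the 8 (2.90% of genes by DESeq2 and 1.24% by limma-voom). DESeq2 also called Hmox1 in KCL-HO-1i/5-FU against 5-FU, where it called 0.351% of genes, and in KCL-HO-1i/gemcitabine against gemcitabine, where it called 0.302%.

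Macrophage markers were higher beside Hmox1 in the average. Of 12 macrophage markers, 12 had a positive log2 fold change and 9 an unadjusted p under 0.05 in the KCL-HO-1i average, with a median of 0.79 (0 over all genes), and none passed the adjusted threshold. For this and the other marker lists, 13.7% of all genes were higher in the average at that p and 23.0% differed in either direction. At an unadjusted p under 0.05, 6 of the 12 macrophage markers were higher with KCL-HO-1i alone against vehicle (median 0.97, against 9.43% of all genes). With KCL-HO-1i/gemcitabine against gemcitabine 7 were higher (median 0.97, against 13.5%). In KCL-HO-1i/5-FU against 5-FU, 11 of 12 were positive and 0 had an unadjusted p under 0.05 (median 0.41, against 11.4% of all genes). With 5-FU alone against vehicle, 11 of 12 were positive and 0 had an unadjusted p under 0.05 (median 0.65, against 3.89% of all genes). With KCL-HO-1i/5-FU against vehicle, 7 were higher at that p (median 1.16, against 17.6%). The summed level of the macrophage markers ran from 246 to 1118 CPM in vehicle, 368 to 1672 in 5-FU and 404 to 1339.7 in gemcitabine tumors. It ran from 731 to 2003 CPM with KCL-HO-1i, 832 to 2473 with KCL-HO-1i/5-FU and 908 to 2034 with KCL-HO-1i/gemcitabine, and no marker was at 0 in any group. With the macrophage score of each library as a covariate, the difference in Hmox1 was 1.86 (SE 0.45, edgeR, unadjusted p = 0.000322). Its adjusted p was 0.983, and no gene of the table passed in that fit. Of the 6 markers of LYVE-1 perivascular macrophages, a population along blood vessels, 3 were higher at an unadjusted p under 0.05 in the average (median 1.04), and 2 of the 6 are also on the macrophage list. With KCL-HO-1i alone against vehicle, 4 of these 6 were higher at that p (median 2.26, against 9.43% of all genes). With KCL-HO-1i/gemcitabine against gemcitabine, 6 were positive and 1 had an unadjusted p under 0.05 (median 1.03, against 13.5%). In KCL-HO-1i/5-FU against 5-FU, 2 of these 6 were positive and 0 had an unadjusted p under 0.05 (median -0.02). The labels also carry a code for each tumor, called the mouse code here, whose meaning is not stated. Its number, 1 of 13, is shared between some groups and also repeats within some groups. Only the numbers 69, 74 and 84 occur both with and without KCL-HO-1i. Number 76 covers most tumors given chemotherapy alone and none given KCL-HO-1i. For most tumors the code and KCL-HO-1i therefore cannot be told apart. With the number of the code as a covariate the difference in Hmox1 was 2.27 (SE 0.84, adjusted p = 0.454). Of 7 erythroid markers, which would report red cells in the tissue, 5 were tested and 0 had an unadjusted p under 0.05 in the average (median -0.51). KCL-HO-1i/gemcitabine tumors had the highest group mean of Blvrb. At an unadjusted p under 0.05, 4 of the 5 erythroid markers were lower in them than in vehicle (median -3.19, against 19.8% of all genes in either direction). At the same p, 1 of these markers was lower than with gemcitabine (median -2.05, against 13.5%). Their summed level was 82.4 to 453 CPM in vehicle and 3.84 to 89.4 CPM with KCL-HO-1i/gemcitabine, and 4 of the 5 gemcitabine tumors lay between 4.41 and 13.9 CPM, with replicate 5 at 702. Over the 30 libraries their summed level ran from 3.84 to 702 CPM. KCL-HO-1i/5-FU replicate 3, the single tumor with the highest Blvrb (51.8 CPM), held 615 CPM of erythroid markers, against 42.5 to 134 in the others of its group. The part of red cells in the level of Blvrb was not tested. Markers of other cells also differed in the average, with 5 of 8 endothelial (median 0.71), 8 of 8 adipocyte (2.27), 8 of 8 muscle (3.36) and 2 of 4 tested of 6 neutrophil markers (0.84) higher at an unadjusted p under 0.05, and 1 of 8 luminal markers lower (median -0.12). Adipocyte and muscle markers were not higher in every background, since in KCL-HO-1i/5-FU against 5-FU 0 of 8 adipocyte markers had an unadjusted p under 0.05 (median 0.15) and 0 of 8 muscle markers were positive (median -2.22). None of the markers passed the adjusted threshold in the average, and Ly6g, a neutrophil marker, was at 0 in every library of 4 groups. The part of cell makeup in the difference of Hmox1 was examined through the macrophage score and by leaving out the 2 libraries richest in adipocyte and muscle markers, and not for the other cell types.

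Hmox2, the constitutive heme oxygenase, was the steadiest member. Its level ran from 55.1 to 89.5 CPM over the 30 tumors, and the group means ran from 69.8 ± 12.5 CPM in vehicle, through 70.3 ± 5.37 with KCL-HO-1i, 72.7 ± 8.77 with KCL-HO-1i/5-FU, 74.5 ± 8.55 with 5-FU and 75.5 ± 6.81 with gemcitabine, to 76.9 ± 7.3 with KCL-HO-1i/gemcitabine. All neighbors overlapped. The KCL-HO-1i average was 0 on the log2 scale with a 95% interval of -0.13 to 0.13. The SD between tumors of a group was 0.17 on the log2 scale for Hmox2, lower than in most genes (percentile 9.7 of those tested), and 1.02 for Hmox1 (percentile 88.5), where the median gene had 0.33.

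The balance between both heme oxygenases moved with Hmox1. Per kb of annotated transcript, Hmox1 made up 45.0% ± 16.6 of heme oxygenase reads in vehicle tumors, 38.2% ± 14 with 5-FU and 36.9% ± 10 with gemcitabine. The share was 67.7% ± 14.9 with KCL-HO-1i, 73.9% ± 17.1 with KCL-HO-1i/5-FU and 73.6% ± 9.57 with KCL-HO-1i/gemcitabine (SD, n = 5 each). Hmox1 exceeded Hmox2 per kb in 14 of 15 tumors given KCL-HO-1i and in 4 of 15 without it. With the length of the longest coding transcript in place of all exons, chosen after seeing the data, these counts were 13 and 1. The gene models of Hmox2 and Cdip1 share 37.0% of the 31-base words of Hmox2 on opposite strands, and the library kit marks strand, but the strand setting of the quantification is not given in the sources used here.

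**Figure D3:**
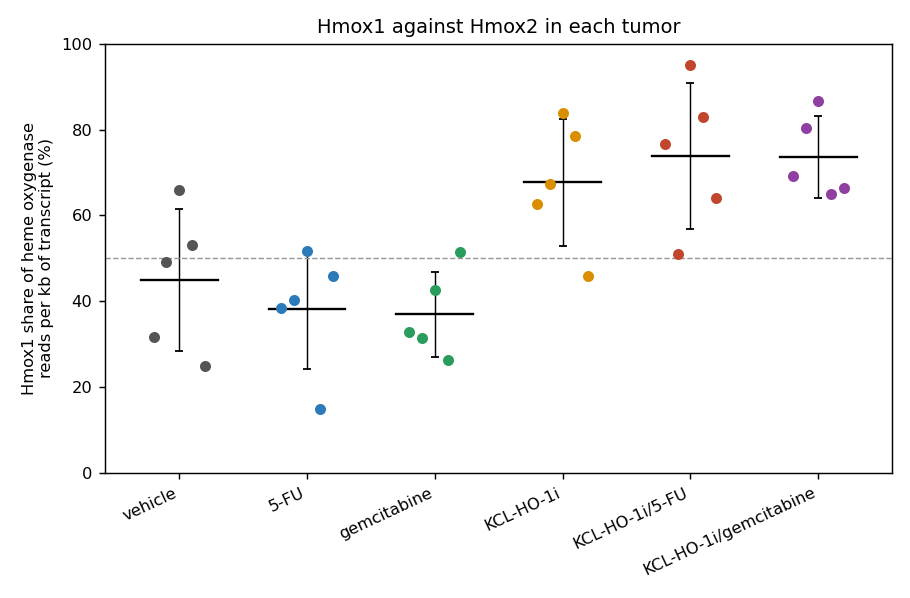
Share of Hmox1 in heme oxygenase reads per kb of transcript (y axis, %) in each tumor (points) by group, with the mean ± SD (bars) and a dashed line at equal levels. It lay between 45.9% and 95% in tumors given KCL-HO-1i and between 14.8% and 66.0% in the others.

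The 2 biliverdin reductases gave different values. Blvra encodes the reductase of biliverdin IXα, the product of heme oxygenase, and Blvrb a reductase of biliverdin IXβ and of flavins that is abundant in red cells. Blvra ran from 22.1 to 42.9 CPM, with group means between 25.5 ± 4.01 (KCL-HO-1i/5-FU) and 31.1 ± 2.54 CPM (KCL-HO-1i/gemcitabine), and in the KCL-HO-1i average its log2 fold change was -0.02 (95% interval -0.18 to 0.14). Blvrb lay at 30.5, 25.5, 15, 28.7 and 20.1 CPM in vehicle tumors, at 20.7, 25.4, 36.5, 21.3 and 40.7 with 5-FU, and at 15.7, 26.9, 30.5, 22.7 and 29.1 with gemcitabine. It lay at 28.6, 29.7, 37.1, 27.2 and 33.4 CPM with KCL-HO-1i, at 37.2, 32.9, 51.8, 27.5 and 29.3 with KCL-HO-1i/5-FU, and at 39.1, 45.3, 33.7, 43.5 and 45.7 with KCL-HO-1i/gemcitabine. The last group was the highest, and its 5 tumors lay above all 5 given gemcitabine alone. In 14 of the 15 tumors given KCL-HO-1i, Blvrb was above the log2 mean of its background.

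The log2 fold change of Blvrb was 0.47 in the average (SE 0.12, unadjusted p = 0.000665, edgeR), 0.38 in the vehicle background (SE 0.21), 0.30 in the 5-FU background (SE 0.21) and 0.73 in the gemcitabine background (SE 0.21). Against vehicle it was 0.58 with KCL-HO-1i/5-FU (adjusted p = 0.175) and 0.79 with KCL-HO-1i/gemcitabine (adjusted p = 0.0828). With the macrophage score as a covariate the average was 0.24 (SE 0.12, unadjusted p = 0.0602), and with the mouse code it was 0.18 (SE 0.29).

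The start regions of these 2 reductase genes are shown because both act on biliverdin and their values with KCL-HO-1i differed in size. RefSeq held windows from 250 bases before to 50 bases after the start for 6 of the 8 members (Hmox2, Blvra, Blvrb, Flvcr1, Flvcr2 and Por) on GRCm38.p6. Windows were searched on both strands for the GC box GGGCGG, which was found in 35.7% of 32851 promoter windows, and for TGACNNNGC, the core of the antioxidant response element, which was found in 12.4%. The motifs do not overlap in the windows shown. In the sequences, written 5′ to 3′ on the plus strand on which both genes lie, capitals mark every match. The window of Blvra, chr2:127070407-127070706, held 1 match to TGACNNNGC, on the reverse strand, and none to GGGCGG. That of Blvrb, chr7:27447728-27448027, held 5 to GGGCGG, all on the reverse strand, and none to TGACNNNGC.
Blvra: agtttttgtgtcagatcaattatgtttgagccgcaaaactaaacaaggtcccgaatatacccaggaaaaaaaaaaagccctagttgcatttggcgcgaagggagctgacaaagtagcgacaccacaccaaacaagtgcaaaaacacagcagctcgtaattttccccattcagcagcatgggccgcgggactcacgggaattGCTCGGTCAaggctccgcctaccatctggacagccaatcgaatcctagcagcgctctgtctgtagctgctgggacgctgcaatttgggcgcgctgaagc
Blvrb: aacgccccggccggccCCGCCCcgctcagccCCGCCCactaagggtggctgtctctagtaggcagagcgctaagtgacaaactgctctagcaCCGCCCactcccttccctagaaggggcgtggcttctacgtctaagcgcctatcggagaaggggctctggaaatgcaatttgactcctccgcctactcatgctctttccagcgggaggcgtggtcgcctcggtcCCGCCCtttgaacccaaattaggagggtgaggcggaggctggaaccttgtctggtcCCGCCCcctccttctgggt
A match is a run of letters and not a shown binding site. A second Blvrb window held neither motif. The windows of Por and Flvcr2 held 4 and 3 matches to GGGCGG and none to TGACNNNGC. The window of Flvcr1 held 1 match to TGACNNNGC and 2 to GGGCGG, and the 3 windows of Hmox2 held 0, 1 and 4 to GGGCGG and none to TGACNNNGC. The letters TGAGTCA (5.2% of all windows) and TATAAA (13.6%) were in none of the 9 windows of the members.

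Slc48a1, the heme transporter of the phagolysosome, had, like Blvrb, a positive difference in the average that was smaller than that of Hmox1. It lay at 74.3, 74, 122, 80.0 and 75.6 CPM in vehicle tumors, at 62.5, 83.7, 90.3, 65 and 115 with 5-FU, and at 70.1, 71.9, 94.7, 92.3 and 104 with gemcitabine. With KCL-HO-1i it lay at 99.6, 86.5, 127, 117 and 101 CPM, with KCL-HO-1i/5-FU at 101, 104, 266, 93.7 and 81.7, and with KCL-HO-1i/gemcitabine at 121, 142, 131, 118 and 131. All 15 tumors given KCL-HO-1i were above the log2 mean of their background, and 5 were above the highest of the other 15. The KCL-HO-1i/gemcitabine tumors were the tightest group (129 ± 9.37 CPM) and none overlapped gemcitabine alone.

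The log2 fold change of Slc48a1 was 0.51 in the average (SE 0.14, unadjusted p = 0.00101, edgeR), 0.32 in the vehicle background (SE 0.24), 0.63 in the 5-FU background (SE 0.24) and 0.57 in the gemcitabine background (SE 0.24). Without KCL-HO-1i/5-FU replicate 3 the value in the 5-FU background was 0.19. Against vehicle it was 0.60 with KCL-HO-1i/5-FU (adjusted p = 0.192) and 0.59 with KCL-HO-1i/gemcitabine (adjusted p = 0.159). With the macrophage score as a covariate the average was 0.34 (SE 0.17, unadjusted p = 0.0515), and with the mouse code it was 0.37 (SE 0.33).

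For the transporters of the FLVCR family, the groups overlapped in every pairwise comparison. Flvcr1 had group means of 16.9 ± 2.84 CPM in vehicle, 17.4 ± 5.69 with 5-FU, 16.8 ± 3.83 with gemcitabine, 19.3 ± 4.79 with KCL-HO-1i, 17.2 ± 7.37 with KCL-HO-1i/5-FU and 15.4 ± 2.21 with KCL-HO-1i/gemcitabine. Its average difference was 0.01 (95% interval -0.29 to 0.32). The antisense gene A230020J21Rik covers 15.1% of the 31-base words of Flvcr1, and within that overlap the 2 genes can be told apart only by strand. Flvcr2 was, after Hmox1, the most variable member (SD between tumors of a group 0.79 on the log2 scale, percentile 81.2). Its group means were 11.5 ± 4.53 CPM in vehicle, 8.79 ± 6.08 with 5-FU, 8.82 ± 4.7 with gemcitabine, 7.55 ± 3.75 with KCL-HO-1i, 12.6 ± 8.25 with KCL-HO-1i/5-FU and 6.76 ± 3.54 with KCL-HO-1i/gemcitabine, and its average difference was -0.15 (95% interval -0.73 to 0.42). A true change within that interval remains compatible with the data for Flvcr2.

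Por encodes NADPH-cytochrome P450 reductase, which hands electrons to heme oxygenases, cytochromes P450 and squalene epoxidase in the endoplasmic reticulum. It was uniform without KCL-HO-1i, at 56.3 ± 3.38 CPM in vehicle, 58.7 ± 6.23 with 5-FU and 59.9 ± 10 with gemcitabine. It lay at 63.1, 60.0, 71, 170.5 and 56.5 CPM with KCL-HO-1i, at 55.8, 54.6, 80.6, 62.6 and 55.4 with KCL-HO-1i/5-FU, and at 77.6, 129, 47.3, 62.0 and 63.1 with KCL-HO-1i/gemcitabine. The values of 170.5 and 129 CPM came from the libraries richest in adipocyte and muscle markers. The average log2 fold change of Por was 0.33 with them (SE 0.14, unadjusted p = 0.0272) and 0.09 without them (SE 0.07, unadjusted p = 0.219), a setting added after seeing the data. By background it was 0.58 over vehicle (SE 0.25), 0.07 over 5-FU (SE 0.24) and 0.34 over gemcitabine (SE 0.25). Without these 2 libraries the averages were 2.35 for Hmox1 (adjusted p = 0.0478), 0.47 for Blvrb and 0.48 for Slc48a1 (adjusted p = 0.138 each).

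**Figure D4:**
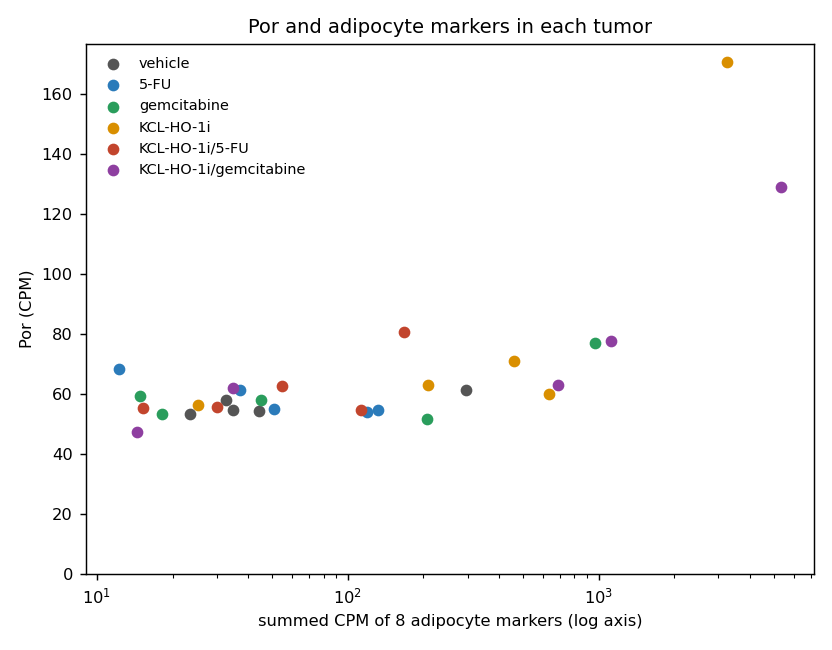
Por in CPM (y axis) against the summed CPM of 8 adipocyte markers (x axis, log scale) in each of the 30 tumors, colored by group. KCL-HO-1i replicate 4 (170.5 CPM of Por) and KCL-HO-1i/gemcitabine replicate 2 (129 CPM) lie at the right end, and the other 28 tumors lie between 47.3 and 80.6 CPM.

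Per kb of annotated exon, which allows levels of different genes to be compared, vehicle tumors held 31.5 ± 5.62 CPM of Hmox2, 31 ± 7.58 of Slc48a1, 28.2 ± 14.5 of Hmox1, 14 ± 0.841 of Por, 11.3 ± 1.72 of Blvra, 8.61 ± 2.29 of Blvrb and 3.27 of both Flvcr1 (± 0.549) and Flvcr2 (± 1.29; SD, n = 5). The first 3 did not differ beyond their spread. The order of Por, Blvra and Blvrb depended on the length used, since per kb of the longest coding transcript their means were 21.4, 23.8 and 23.3 CPM. Over the 15 tumors given KCL-HO-1i, Hmox1 led with 135 CPM per kb on average, ahead of Slc48a1 with 44.1 and Hmox2 with 33.1.

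Between tumors of 1 group, Hmox1 and Slc48a1 varied together. With group means removed, their log2 CPM gave r = 0.722 over 30 tumors (permutation test within groups with 100000 draws, adjusted p = 0.0119 over the 28 pairs of members) and a Spearman rho of 0.621 (permutation, adjusted p = 0.0193), and r = 0.602 without the 2 tumors farthest in Hmox1. The tumor highest in both, KCL-HO-1i/5-FU replicate 3 (1198 and 266 CPM), also had the highest macrophage marker sum of the 30, at 2473 CPM. Its luminal marker sum was the lowest of the 30, at 2724 CPM. It held 615 CPM of erythroid markers, against 42.5 to 134 CPM in the others of its group. Its endothelial markers summed to 368 CPM, against 54.7 to 95.4 CPM in those others. Vehicle replicate 3, the highest of its group in both (84.7 and 122 CPM), had the lowest macrophage sum of the 30, at 246 CPM. In the 5-FU, gemcitabine and KCL-HO-1i groups, the tumor highest in Hmox1 also had the highest macrophage sum (1672, 1339.7 and 2003 CPM). In the KCL-HO-1i/gemcitabine group it had the lowest, at 908 CPM. The part of cell makeup in the relation of Hmox1 and Slc48a1 was not tested.

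**Figure D5:**
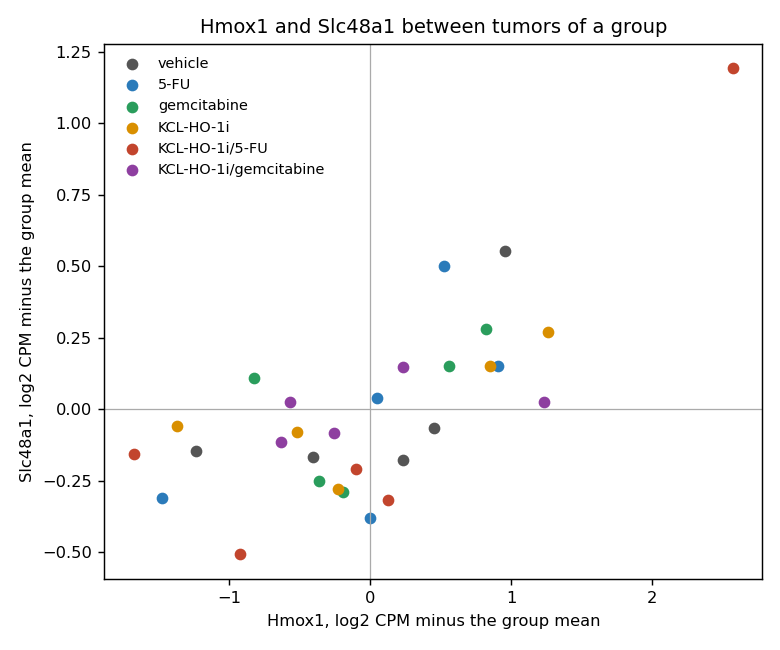
Slc48a1 (y axis) against Hmox1 (x axis), both as log2 CPM minus the mean of the group, in 30 tumors colored by group. The points rise together (r = 0.722), and KCL-HO-1i/5-FU replicate 3 is the point at the upper right.

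Of the other 27 pairs, 3 passed the same adjusted threshold for r. Blvra and Flvcr1 varied in opposite directions (r = -0.683, rho = -0.579, permutation adjusted p = 0.0119 and 0.0214; r = -0.498 without the 2 farthest tumors), as did Flvcr2 and Por (r = -0.488, rho = -0.527, permutation adjusted p = 0.0356 and 0.0362; r = -0.461 without the 2 farthest). Hmox2 and Blvra rose together (r = 0.597, permutation adjusted p = 0.0204), and for this pair the rank correlation did not pass (rho = 0.52, adjusted p = 0.0587; r = 0.555 without the 2 farthest). Hmox1 and Hmox2 gave r = -0.109. The 5 genes outside the members whose deviations were most like those of Hmox1 over the 30 tumors, among 13655 genes, were Tcp11l1 (r = 0.821), Frmd6 (0.811), Rab31 (0.800), Slc12a4 (0.790) and Mmp13 (0.785). Without KCL-HO-1i/5-FU replicates 3 and 2, the farthest in Hmox1, these values ran from 0.690 to 0.765. The ranking is a description and picks the highest values from many genes.

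Genes around the pathway were read from lists chosen with earlier results of these data known. Of 12 genes for iron released from heme, 11 were tested, and 2 rose in the KCL-HO-1i average past the adjusted threshold, Slc40a1, the iron exporter ferroportin (17.2 ± 5.79 CPM without and 51.2 ± 55.9 with KCL-HO-1i, log2 fold change 1.5, SE 0.26, adjusted p = 0.0149), and Slc11a1, an iron transporter of the macrophage phagosome (4.92 ± 3.15 and 15.5 ± 8.35 CPM, 1.69, SE 0.30, adjusted p = 0.0213; SD, n = 15). Fth1, the heavy chain of ferritin, had 0.80 (adjusted p = 0.0525), and its counts are uncertain because near-identical pseudogenes exist. At an unadjusted p under 0.05, 4 of the 11 were higher and 2 lower, with a median of 0.32 (0 over all genes). Over all genes tested, 0.0586% passed the adjusted threshold in the average. For this and the lists below, 13.7% of all genes were higher at an unadjusted p under 0.05 and 23.0% differed in either direction. Hamp, which encodes hepcidin, had 0 reads in all 30 libraries.

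Of 10 regulators of Hmox1, Spic, a transcription factor of red pulp macrophages induced by heme, rose (3.14, SE 0.59, adjusted p = 0.0275) on few reads, with at most 63 in a library and 0 in 7 libraries. Nr1d1, which encodes the heme-binding repressor REV-ERBα, had 0.92 (adjusted p = 0.105). Bach1 had 0.14 (SE 0.11) and Nfe2l2, which encodes NRF2, 0.03 (SE 0.10). For this list 2 of 10 were higher and 0 lower at an unadjusted p under 0.05, with a median of 0.04.

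Heme synthesis gave no call past the adjusted threshold. Of its 8 genes, 2 were lower and 1 higher at an unadjusted p under 0.05, with a median of -0.04. Alas1, the rate-limiting enzyme that heme represses, had a log2 fold change of -0.38 (20.8 ± 4.61 CPM without and 16.3 ± 5.86 with KCL-HO-1i, SE 0.14, adjusted p = 0.103), Cpox had -0.27 (adjusted p = 0.104) and Fech, which inserts the iron, had 0.22 (adjusted p = 0.147). Of 12 other heme carriers, 11 were tested and none passed. At an unadjusted p under 0.05, 2 were higher and 2 lower, with a median of -0.02. Lrp1, the receptor for heme bound to hemopexin, had 1.20 (adjusted p = 0.057), and the transporter Abcb6 had -0.35 (adjusted p = 0.102). Of 9 other electron acceptors of Por none passed, with 1 higher and 1 lower at an unadjusted p under 0.05 and a median of 0.13. Sqle, squalene epoxidase, had -0.33 (adjusted p = 0.0938), Cyb5a, cytochrome b5, had 0.40 (adjusted p = 0.132), and Cyp2d22 had 0.47 (adjusted p = 0.255).

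In the genome (GENCODE annotation of GRCm38), the members lie apart from each other on 8 chromosomes, Hmox1 at chr8:75093621-75100589, Hmox2 at chr16:4726361-4766742, Blvra at chr2:127070665-127097084, Blvrb at chr7:27447978-27466144, Slc48a1 at chr15:97778520-97792692, Flvcr2 at chr12:85746539-85813585 and Por at chr5:135670033-135735326, all on the plus strand, and Flvcr1 at chr1:191005847-191026158 on the minus strand. On the same strand no member shared more than 0.252% of its 31-base words with another gene.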

How the data were processed

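RNA from 30 mammary tumors of MMTV-PyMT mice was extracted with RNeasy columns and made into libraries with the NEBNext Ultra II Directional kit. Per the submitters' processing notes and the methods of the study, reads were checked with FastQC 0.11.9 and handled with STAR 2.7.9a, Salmon 1.9.0 and tximport on mm10. The authors deposited 1 table of expected counts per gene, without normalization for depth. The methods speak of TPM, but 38% of the values are not whole and totals differ between libraries. The annotation release and the strand setting are not given in the sources used here. Totals ran from 10067577 to 13622264, which puts 3 reads at 0.215 to 0.302 CPM. Depth covers counting error only.

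Groups were taken from the treatment labels. Counts were rounded to whole numbers and fitted with edgeR 4.0.16 (R 4.3.3) by the quasi-likelihood test, with TMM normalization, a filter at a minimum count of 10 (filterByExpr by group), robust dispersion, all 30 libraries and 6 group means. P-values were adjusted by Benjamini-Hochberg over all 13663 genes tested, with a threshold of 0.05. The SE is the log2 fold change divided by the root of F, and 95% intervals use 24 degrees of freedom. CPM use effective library sizes, and log2 CPM use a prior count of 2. The KCL-HO-1i average is the mean of its effects in the vehicle, 5-FU and gemcitabine backgrounds. The study describes 5 mice and tumors per group, and on that reading p-values measure the spread between mice. The number of the mouse code repeats within some groups, and whether such tumors are related is not stated. The steps were tested on simulated counts with known changes. Correlations used 100000 permutations within groups.

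The members and lists were chosen with earlier results of these data known. Genes named beside the 8 members are the 5 most correlated with Hmox1, up to 3 genes of each pathway list with the smallest p in the KCL-HO-1i average, and Slc40a1, Bach1, Nfe2l2 and Alas1. A gene that this rule names is not reported here. Hamp, Ly6g and the genes sharing sequence with members were named in addition. Alternatives were DESeq2 1.42.0, limma-voom (limma 3.58.1) with quality weights, RLE scaling, other filters, only the groups compared, a block for the replicate number, a covariate for the mouse code or for a macrophage score, and each library left out. A fit without the 2 libraries richest in adipocyte and muscle markers and the length of the longest coding transcript were added after seeing the data. The methods of the study name DESeq2, and edgeR was used here as the main test. Gene positions are from GENCODE on GRCm38 and promoter windows from RefSeq on GRCm38.p6.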

Additional observations from a re-analysis of the deposited data

Results flagged for a closer look

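In each member and group, the highest or lowest of the 5 tumors was compared with its nearest neighbor on the log2 CPM scale, by Dixon's ratio of the gap to the whole range (critical value 0.71). Of 48 sets, 9 held a tumor that stood apart, and chance gives about 1 in 20.

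Flvcr1 held 4 of them over its 6 groups. It was low in 5-FU replicate 4 (7.74 CPM), gemcitabine replicate 3 (10.1 CPM) and KCL-HO-1i/gemcitabine replicate 3 (11.5 CPM), and high in KCL-HO-1i/5-FU replicate 2 (30.2 CPM).

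Slc48a1 was high in vehicle replicate 3 (122 CPM) and in KCL-HO-1i/5-FU replicate 3 (266 CPM), which were also the highest of their groups in Hmox1. Por was high in KCL-HO-1i replicate 4 (170.5 CPM), a library with 3247 CPM of adipocyte markers. Hmox2 was low in KCL-HO-1i/5-FU replicate 4 (57.7 CPM), and Blvra was high in KCL-HO-1i replicate 5 (33.1 CPM).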

How the results depend on the processing

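With each library left out in turn, the KCL-HO-1i average of Hmox1 ran from 1.99 to 2.51 and passed the threshold in all 30 fits (edgeR, adjusted p = 0.00323 to 0.0345). It was 2.27 with the mouse code and 1.86 with the macrophage score as a covariate, and passed in neither. The number of members past the threshold in that average was 1 in the reported fit, 3 with DESeq2, 3 with limma-voom, 0 with the mouse code and 0 with the macrophage score. It ran from 1 to 3 with a library left out, and was 3, with Blvrb and Slc48a1 added, without 5-FU replicate 5, gemcitabine replicate 5, KCL-HO-1i replicates 1 or 5, KCL-HO-1i/5-FU replicates 4 or 5, or KCL-HO-1i/gemcitabine replicate 4. Calls over all genes in that average numbered 8 with edgeR, 1210 with DESeq2 and 267 with limma-voom, and up to 1130 without gemcitabine replicate 5. The cause was not tested.

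In KCL-HO-1i/5-FU against vehicle, DESeq2 and limma-voom each gave 1 member, and leaving out a library gave 0 to 1 (Hmox1 without KCL-HO-1i/5-FU replicate 4, with 186 genes called in all). In KCL-HO-1i/gemcitabine against vehicle, DESeq2 gave 2, limma-voom 3 and leaving out a library 0 to 1 (Blvrb without KCL-HO-1i/5-FU replicate 3, with 151 genes called in all, against 0 in the reported fit of either comparison). DESeq2 gave 1 in KCL-HO-1i/5-FU against 5-FU and 1 in KCL-HO-1i/gemcitabine against gemcitabine.

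Among the fold changes printed in the text, signs turned, in no called value, for Hmox1 with 5-FU (0.15, limma-voom), Por with KCL-HO-1i alone (-0.13, mouse code), Blvrb with KCL-HO-1i/5-FU against 5-FU (-0.05, mouse code) and Por there (-0.04 with the macrophage score, and -0.04 to 0.13 with a library left out). In the average they turned for Flvcr1 (-0.05 with limma-voom, -0.18 with the macrophage score, -0.01 without the 2 libraries richest in adipocyte and muscle markers, -0.09 to 0.05 with a library left out), Blvra (0.03 with the macrophage score, -0.06 to 0.02 with a library left out) and Flvcr2 (-0.31 to 0.02 with a library left out). Over all 80 fold changes of the members, 47 changed sign in at least 1 alternative (140 of 3192 values, none of them called), the largest of them at 1.12.

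With the replicate number as a block, the average of Hmox1 was 2.16 (SE 0.30, adjusted p = 0.00336), and it stayed the 1 member called, with 12 genes called in all. Same-numbered tumors of different groups did not deviate together (mean r = 0.00284 over 75 pairs, 22 above 0.1), so the numbers do not pair the samples. No 2 tumors of a group agreed within sampling noise (60 pairs, chi-square per degree of freedom at least 20.1).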
